A study of Mus musculus with 6 samples.

Results

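The proteasome genes of the mouse were examined in B16 melanoma cells for 2 chromatin features of active promoters. The genes were those whose RefSeq symbol begins with Psm, a letter from a to g and a digit, among the protein-coding genes of the GRCm38 assembly, without the immunoproteasome genes Psmb8, Psmb9 and Psmb10. This gave 48 of 21883 protein-coding genes, spread over 16 chromosomes, of which chromosome 11 held 10. Of the 48, Psmc3ip and Psme3ip1 carry such a symbol because their products bind a subunit or were named after one, and they encode no subunit themselves.

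The 26S proteasome is the main machine that degrades ubiquitin-tagged proteins. Its barrel-shaped core is built from rings of α subunits, which gate the entrance, and rings of β subunits, some of which cut peptide bonds. A regulatory particle, made of a base with a ring of ATPases and a lid, recognises, unfolds and feeds in substrates. Dedicated chaperones assemble these parts, and alternative activators can cap the core. Most subunits are made in every cell, and when proteasome activity falls the transcription factor NFE2L1 raises their transcription together. H3K4me3, trimethylated lysine 4 of histone H3, marks the starts of active genes, and p300 is a histone acetyltransferase found at active promoters and enhancers.

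B16 is a mouse melanoma line grown in culture. The measurements came from CUT&Tag, in which an antibody guides a DNA-cutting transposase to its target in chromatin, and the fragments released are sequenced. The labels describe 6 libraries for 3 antibodies; those used were of wild-type B16 cells, 1 for H3K4me3 and 1 for p300, with no treatment named. The 4 libraries for H3K9me3 are titled wild type, Tdg knockout, Trp53 knockout and knockout of both, and were not analysed here. Their genotype field reads wild type throughout, so groups were taken from the titles, and no genotypes were compared.

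The H3K4me3 list held 27019 peaks on nuclear chromosomes and the p300 list 6512. Each peak carries the authors' fold enrichment, the height of its summit over a background of unstated source, and a −log10 q. Both are the authors' values, used only to describe and rank peaks within a list. Read totals are not stated. The number of reads at a summit was worked out from the peak's fold and p, on the assumption that the fold is (reads + 1) over (background reads + 1) and that p is a Poisson tail, with a median of 80.0 in the H3K4me3 list and 39 in the p300 list. Where intervals are given, those of read numbers are exact 95% Poisson and those of shares exact 95% Clopper-Pearson binomial. PCR copies are not independent molecules, so both cover counting error only. With 1 library for each antibody there was no replicate check and no test could be made, and a missing peak says only that no signal was detectable at this sequencing depth. Of 7 pigment cell marker genes, 6 had H3K4me3 within 1 kb of an annotated gene end, all but Mlana. So did 3 of 12 markers of lymphocytes, myeloid, epithelial and stromal cells, namely Cd68, Col1a1 and Pdgfrb. Of all protein-coding genes 50.5% had it there.

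The RefSeq promoter sequences of 6 genes are shown because the results below turn on them. Psma3, Psmd1, Psmd11, Psmd13 and Psmc6 had a p300 peak near the start, and Psmb5, the target of proteasome inhibitor drugs, held a match to the core of the antioxidant response element close to a start marked by H3K4me3. Each runs 5′ to 3′ in the direction of transcription, from 250 bases before the start site to 50 from it, in build GRCm38.p6. Capitals mark matches, on either strand, to TGACNNNGC, the response element core bound by NFE2L1 and NFE2L2, and to CCGGAAG, a site of the ETS transcription factors. The windows are chr12:70974373-70974672 on the plus strand for Psma3, chr1:86064369-86064668 (plus) for Psmd1, chr11:80428365-80428664 (plus) for Psmd11, chr7:140882144-140882443 (plus) for Psmd13, chr14:45329574-45329873 (plus) for Psmc6 and chr14:54617946-54618245 (minus) for Psmb5.
Psma3: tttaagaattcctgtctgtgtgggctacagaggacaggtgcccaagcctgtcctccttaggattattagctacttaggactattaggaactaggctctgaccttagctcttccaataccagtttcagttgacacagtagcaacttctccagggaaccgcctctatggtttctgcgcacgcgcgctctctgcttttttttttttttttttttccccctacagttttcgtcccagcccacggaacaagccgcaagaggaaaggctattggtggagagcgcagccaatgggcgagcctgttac
Psmd1: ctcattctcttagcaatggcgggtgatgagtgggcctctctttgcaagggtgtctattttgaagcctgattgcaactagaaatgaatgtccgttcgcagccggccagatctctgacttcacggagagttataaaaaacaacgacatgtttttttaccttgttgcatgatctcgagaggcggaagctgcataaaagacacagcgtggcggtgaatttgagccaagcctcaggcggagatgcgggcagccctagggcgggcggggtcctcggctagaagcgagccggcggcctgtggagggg
Psmd11: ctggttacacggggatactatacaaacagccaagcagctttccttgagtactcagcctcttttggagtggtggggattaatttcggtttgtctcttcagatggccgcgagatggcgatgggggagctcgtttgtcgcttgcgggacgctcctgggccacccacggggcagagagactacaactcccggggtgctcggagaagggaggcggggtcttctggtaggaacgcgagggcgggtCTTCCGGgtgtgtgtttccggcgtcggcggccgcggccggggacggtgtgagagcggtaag
Psmd13: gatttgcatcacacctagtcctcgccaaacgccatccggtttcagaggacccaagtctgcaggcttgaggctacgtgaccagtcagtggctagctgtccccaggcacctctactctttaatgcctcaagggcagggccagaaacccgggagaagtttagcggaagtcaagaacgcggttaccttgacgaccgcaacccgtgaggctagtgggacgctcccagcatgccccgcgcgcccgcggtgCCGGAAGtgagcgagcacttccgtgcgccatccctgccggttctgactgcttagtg
Psmc6: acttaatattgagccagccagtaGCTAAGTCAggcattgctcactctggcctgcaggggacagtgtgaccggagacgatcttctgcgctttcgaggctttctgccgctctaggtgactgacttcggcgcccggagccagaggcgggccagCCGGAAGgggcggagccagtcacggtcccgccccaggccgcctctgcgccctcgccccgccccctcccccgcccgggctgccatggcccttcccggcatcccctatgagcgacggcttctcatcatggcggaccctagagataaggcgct
Psmb5: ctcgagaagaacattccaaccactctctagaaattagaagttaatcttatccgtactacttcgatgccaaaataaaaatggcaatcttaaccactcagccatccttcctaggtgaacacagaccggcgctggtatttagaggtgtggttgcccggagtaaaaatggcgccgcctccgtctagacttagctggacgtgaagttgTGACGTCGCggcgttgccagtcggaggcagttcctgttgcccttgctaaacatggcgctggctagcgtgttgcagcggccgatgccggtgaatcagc
Psmd11 and Psmd13 each held 1 CCGGAAG match, Psmc6 held 1 match to each motif, Psmb5 held 1 TGACNNNGC match, and Psma3 and Psmd1 held neither.

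Nearly all proteasome genes carried H3K4me3. A peak lay within 1 kb of an annotated end of 43 of 48 genes, 89.6% (77.3% to 96.5%), where 50.5% of all protein-coding genes had one. Counting peaks anywhere in the gene or within 1 kb of it raised this to 46 genes, 95.8%, beside 58.9% of all genes. Within 50 kb there were 47, or 97.9%, beside 75.5%. The exception at that distance was Psme2b.

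p300 was listed at fewer of them. It lay within 1 kb of an end of 13 genes, 27.1% (15.3% to 41.8%), beside 13.5% of all genes. Of p300 peaks at the ends of all genes, 97.6% overlapped H3K4me3, so the count was also set against marked genes alone. Of the 43 genes with H3K4me3 at an end, 30.2% (17.2% to 46.1%) had p300 at an end too, beside 26.5% of all such genes, a background that lies inside the interval. The share of proteasome genes with p300 was thus near that of marked genes in general. Part of the count came from weaker peaks, and its side of the marked background depended on how these were removed. With p300 and H3K4me3 peaks at or above each list's median −log10 q, 4 genes had p300 at an end, beside 6.5% of all genes, and the share of marked genes with p300 was 10.3%, beside 14.6%. With peaks at or above the median fold the count was 7, beside 6.93%, and the share of marked genes 19.4%, beside 16.5%.

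**Figure D1:**
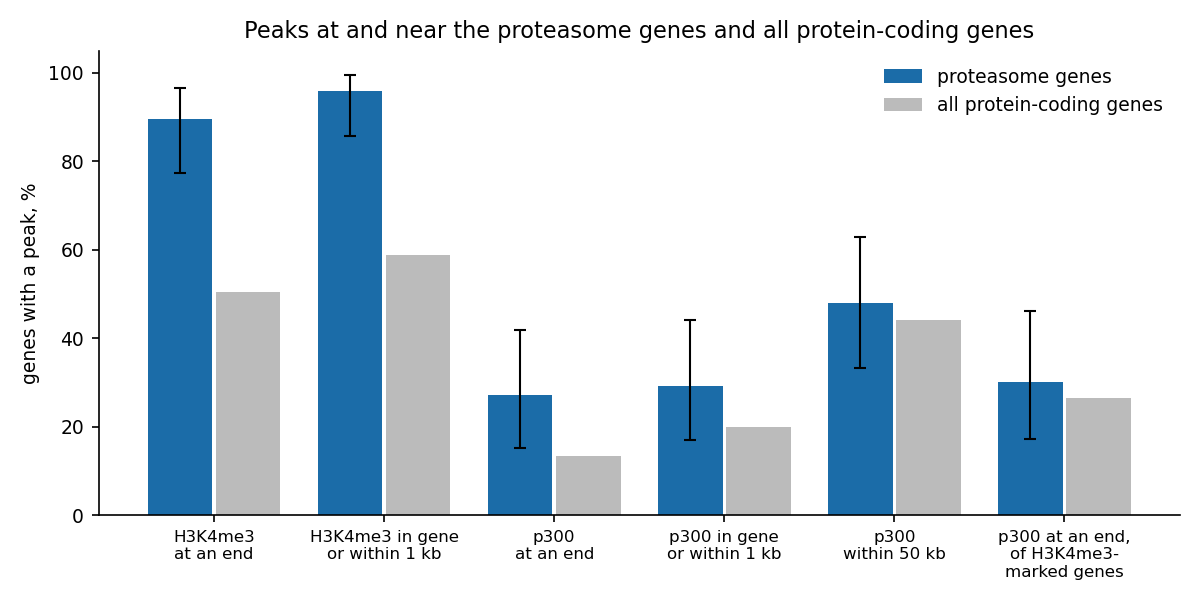
Share of genes with an H3K4me3 or p300 peak, in percent, for the proteasome genes and for all protein-coding genes at each distance. Error bars are exact 95% binomial intervals for the proteasome genes. The share with H3K4me3 at an end was 89.6% against 50.5%, while the share of marked genes with p300 at an end was 30.2% against 26.5%.

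The H3K4me3 peaks of the proteasome genes were somewhat stronger than those of other marked genes. Taking the peak of highest fold at each gene's ends, the median fold was 8.42 (3.25 to 11.6) over 43 genes and 7.28 over all 11041 marked genes. Of the 43, 31 lay above the median of all marked genes and 16 above their upper quartile of 8.91, while 5 lay below their lower quartile of 5.82. The median summit held 158 reads (59 to 307), beside 132. Widths differed less, with a median of 1194 bp beside 1109 bp, and 25 of 43 lay above the latter.

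In the α ring, which gates the core, 6 of 7 genes had H3K4me3 at an end, with a median fold of 9.22. Psma1 and Psma2 stood near the top of all the proteasome genes, with folds of 11.2 and 11.1 and 184 and 136 reads at the summit. Psma5 followed with a fold of 10.0 and 203 reads. Psma4 had a fold of 8.42 and Psma3 one of 8.18. Psma7 had the lowest fold of all 43 genes, 3.25, and also the narrowest strongest peak, 405 bp. Its summit held 80 reads (63.4 to 99.6), well over the fewest seen, but over a high local background of 23.9. Psma6 had none at an annotated end and is described with the other unmarked genes.

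All 7 β ring genes of the standard core had H3K4me3 at an end, with folds from 4.92 to 11.6 and a median of 7.11, the lowest median of the subunit groups. Psmb2, a structural β subunit, had the highest fold of all the proteasome genes, 11.6, with 177 reads (152 to 205). The catalytic subunit genes Psmb5, Psmb6 and Psmb7, which carry the chymotrypsin-like, caspase-like and trypsin-like activities, had folds of 8.75, 7.95 and 6.45. Their summits held 122, 121 and 86 reads, and the structural β subunit genes had folds both above and below these. Psmb1 had a fold of 7.11 in one of the narrowest peaks, 643 bp. Psmb3 showed how fold and reads can part: its fold of 4.92 was among the 5 lowest, yet its summit held 271 reads (240 to 305), the second most, over a background of 54.3 reads, the highest of the 43.

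The 6 base ATPase genes, whose products unfold substrates, were all marked, with a median fold of 8.31. Psmc4 had the highest fold, 9.94, followed by Psmc6 with 9.37 and Psmc5 with 9.15. Psmc5 had the most summit reads of any proteasome gene, 307 (274 to 343). Psmc1 and Psmc2 were among the 5 lowest, with folds of 5.38 and 4.26 and with 112 and 84 reads. Inside Psmc2 another peak, of fold 5.28 with 103 reads, covered its second listed start.

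All 11 genes for the other regulatory subunits were marked, with a median fold of 8.62. Psmd4, which encodes a ubiquitin receptor, had the highest fold, 10.4, with 158 reads. Psmd13 and Psmd2 followed with 9.93 and 9.92; the former encodes a lid subunit and the latter a scaffold of the base. Psmd1, the other large scaffold of the base, had a fold of 8.62 in one of the widest peaks, 1758 bp. Psmd14, the deubiquitinase that removes ubiquitin chains from substrates, had a fold of 6.19 and 82 reads. Psmd8, a lid subunit gene, had the lowest fold of this group, 4.07, with 66 reads (51.0 to 84.0). Psmd6 had the fewest reads of all, 59 (44.9 to 76.1), at a fold of 7.19, and Psmd7 had 67 at 6.82.

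The 7 genes for assembly chaperones, Psmg1 to Psmg4 for the core and Psmd5, Psmd9 and Psmd10 for the base, varied little in fold. Summit reads of these genes varied more, from 64 to 191. Their folds ran from 8.12 to 10.4 with a median of 9.38, so that all 7 lay above the median of all marked genes. Psmd5 had 10.4, Psmd9 10.3 and Psmd10 10.0. Psmd10, on the X chromosome, reached its fold with 64 reads (49.3 to 81.7) over a background of 5.49, the lowest of the 43. How many X chromosomes these cells carry was not analysed here.

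Of the 6 genes for activators and the inhibitor, 4 had H3K4me3 at an end. Psme1 and Psme2 encode the partners of an activator induced by interferon gamma and lie 5912 bp apart on chromosome 14. Psme1 had a fold of 10.8 in a peak of 1045 bp, and Psme2 had 7.24 in a peak of 1922 bp with 246 reads. Psme3, for the nuclear activator, had 7.98. Psme4, for the large activator that acts on histones, had 8.27 in a peak of 462 bp, the second narrowest. Of the genes that encode no subunit, Psmc3ip, for a meiotic recombination factor, had 7.79 and 209 reads. Psme3ip1, for a partner of the Psme3 product, had 7.78 in the widest peak of all, 2442 bp. Without these last 2 genes, H3K4me3 was at an end of 41 of 46 genes and p300 of 12.

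**Figure D2:**
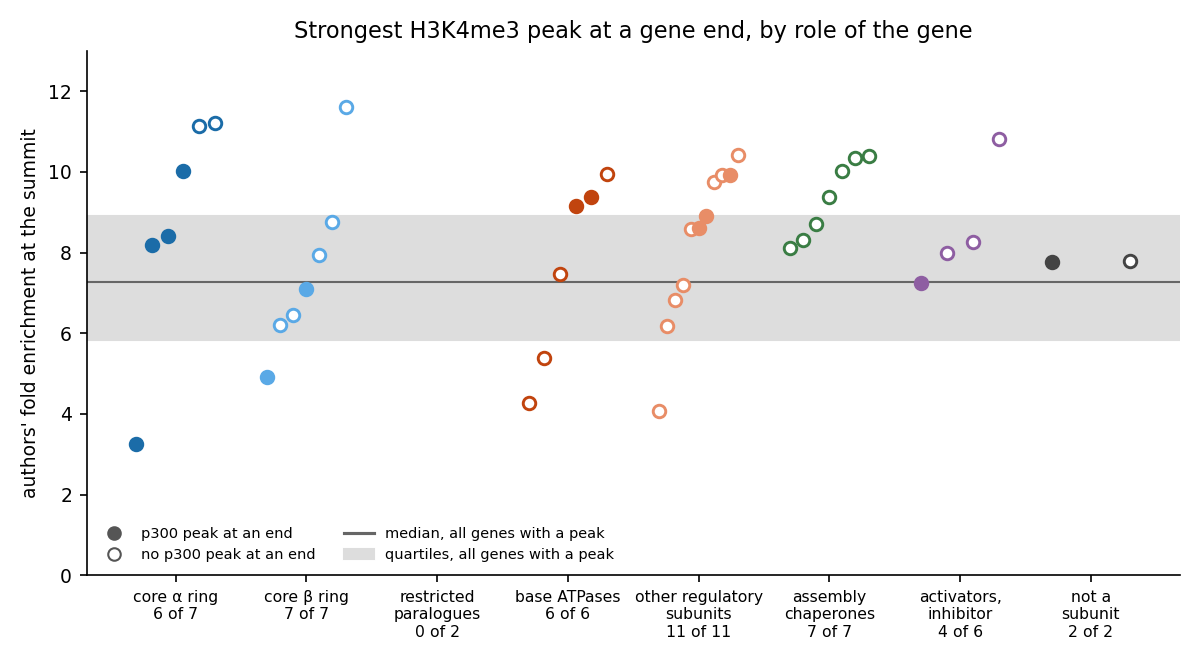
Fold enrichment of the strongest H3K4me3 peak within 1 kb of a gene end (the authors' value, linear axis), 1 point for each gene, by role in the proteasome. Filled points have p300 at an end and open points do not; the line and grey band are the median and quartiles of all marked genes. Assembly chaperone genes lie between 8.12 and 10.4, while the α ring runs from 3.25 to 11.2.

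The 5 genes with no H3K4me3 at an annotated end fell into different kinds. Psma6 and Psmf1, the latter for a protein that inhibits the core in the test tube, had a peak inside the gene over another start. Psma6 has a second RefSeq start at 55398825 on chromosome 12, inside its span of 55384222 to 55418459. A peak at 55398281 to 55399786, with a fold of 9.0 and 154 reads, covered that start with its summit at −31 bp, just upstream. Psmf1 lies at 151716062 to 151744199 on chromosome 2 on the minus strand. A peak at 151740561 to 151741678, with a fold of 8.81 and 142 reads, covered its listed start at 151741310. Both folds lay above the median of the marked proteasome genes, 8.42, and both read numbers just below their median of 158.

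The other 3 showed little or none. Psma8 encodes the α subunit of the testis proteasome, and it had 1 peak inside the gene of 443 bp, with a fold of 7.33 and 26 reads, far below the 59 to 307 reads of the marked genes. Psmb11 encodes the β subunit of the thymus proteasome, and it had none in the gene or within 1 kb. It lies 7314 bp from Psmb5 on chromosome 14, and the nearest H3K4me3 peak was that of Psmb5. Psme2b, at 48945345 to 48946410 on chromosome 11, spans 1066 bp and is a copy related to Psme2. It had no H3K4me3 or p300 peak within 50 kb. Reads from near-identical copies can be lost or misplaced in alignment, and any filter on repeated sequence is unstated in the labels.

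Start sites gave a sharper view than gene ends. RefSeq lists 44 starts for 40 of the genes, and none was used here for Psma8, Psmb1, Psmb2, Psmb7, Psmc3, Psmd3, Psmd7 and Psmg2. H3K4me3 came within 1 kb of a start of 38 of 40 genes, 95%, beside 52.8% of all genes with a listed start. p300 did so for 12 of 40, 30% (16.6% to 46.5%), beside 14.4%. The 2 genes without H3K4me3 at a start were Psmb11 and Psme2b.

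At the 40 starts with H3K4me3, from 38 genes, the strongest peak covered the start itself in 39, or 97.5%, beside 74.8% of all marked starts. The peaks reached a median of 482.5 bp upstream and 725.5 bp downstream, close to the 470.0 and 698 bp of all genes. Their summits lay near the start, with a median position of −32 bp and quartiles of −101 and 75 bp, negative values being upstream. Over all genes the median was 8 bp and the quartiles −191 and 276 bp, so summits of the proteasome genes were packed closer around the start. All genes had more starts for each gene, 11011 starts from 9231 genes. The part of this in the summit spread and in the share of starts covered was not tested. In 34 of 40 the summit was within 250 bp. The exception in covering the start was Psma7, whose strongest peak lay 721 bp or more upstream; a weaker one, with a fold of 3.10 and 77 reads, covered the start. Psmc1 and Psmd6 had summits farthest downstream, at 568 and 576 bp.

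**Figure D3:**
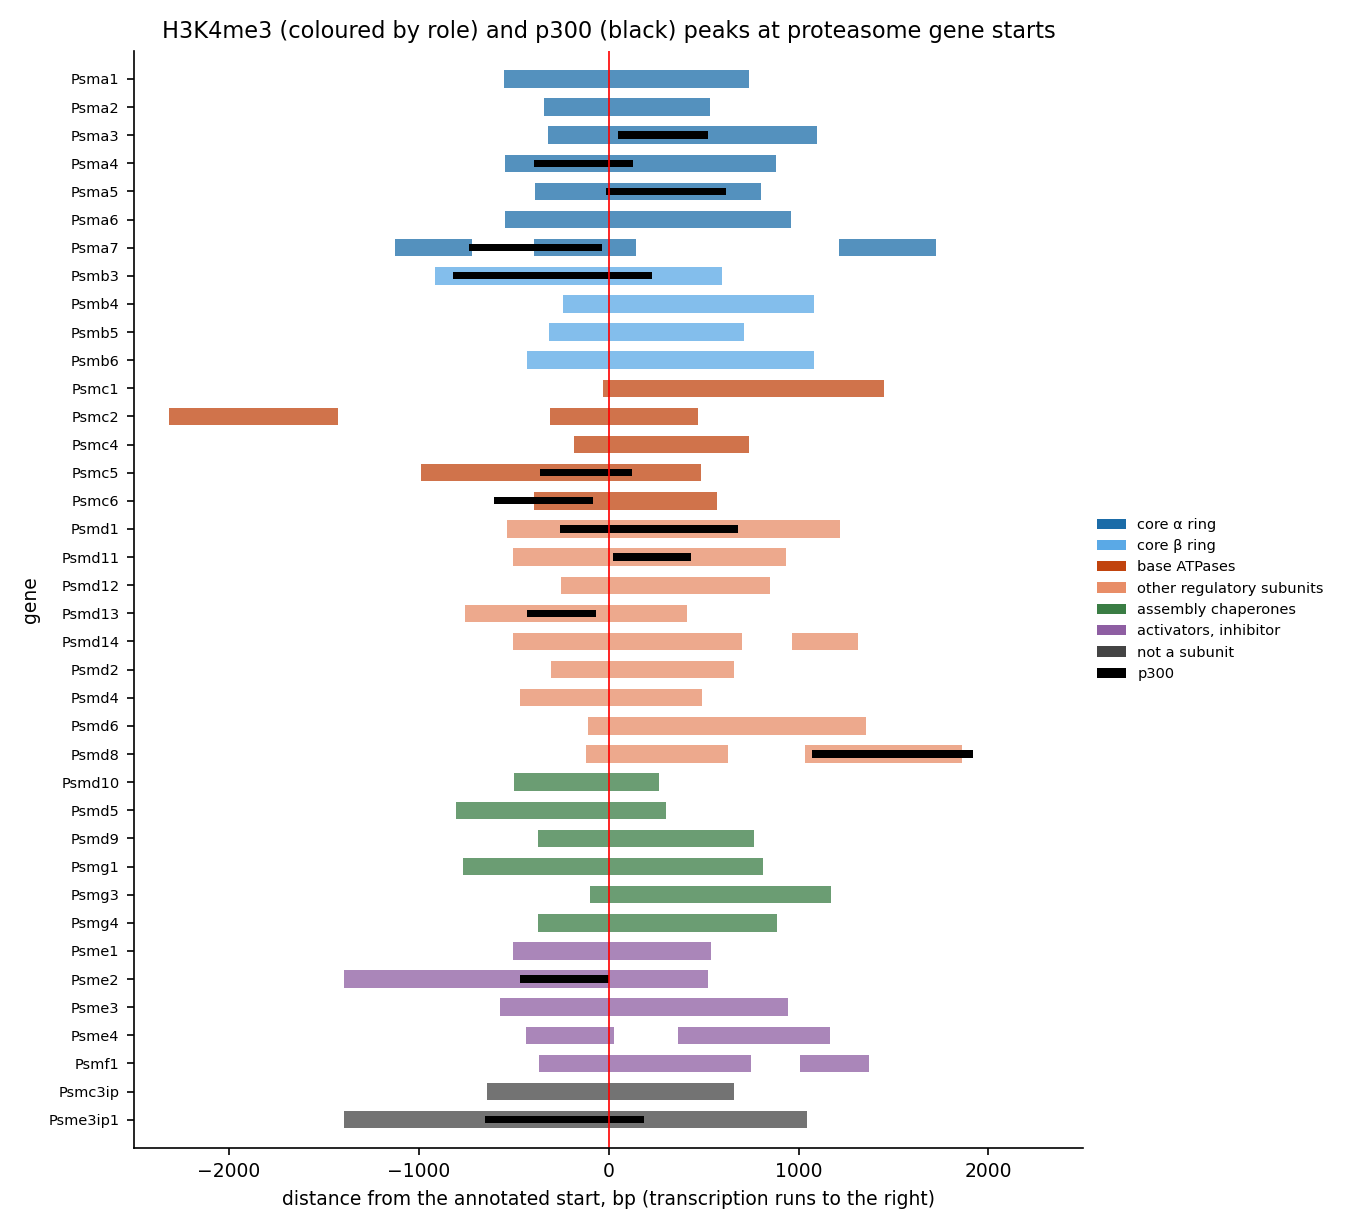
Extent of H3K4me3 peaks (coloured by role) and p300 peaks (black) around 1 annotated start of each of 38 proteasome genes, in bp, with transcription running to the right. H3K4me3 spans the start line in the genes shown, and p300 lies upstream of it, across it or, in Psma3, Psmd11 and Psmd8, downstream.

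Some of these peaks also lay at the end of a neighbouring gene. The H3K4me3 peak at the end of 13 of 43 genes, 30.2% (17.2% to 46.1%), also came within 1 kb of another protein-coding gene's end, beside 30.7% of all marked genes, a share near the background. The partners were Mrpl32 at Psma2, Hykk and AY074887 at Psma4, Ss18l1 at Psma7, Pcgf2 at Psmb3, Dnajc2 at Psmc2, Ftsj3 at Psmc5, Retreg3 at Psmc3ip, Sirt3 at Psmd13, Catsperg1 at Psmd8, Rnf31 at Psme2, Rspry1 and LOC115486880 at Psme3ip1, Brwd1 at Psmg1 and Cep76 at Psmg2. Counting listed starts alone, 7 of 38 marked genes shared a peak, beside 18.9% of all marked genes.

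In 7 of the 40 genes with a listed start, 17.5%, another gene with a listed start began within 1 kb upstream on the opposite strand. The share of all genes with a listed start was 8.48%, from which so few pairs cannot be told. Neighbours without a listed start were not counted. Dnajc2, whose span ends at 21785264 just before the Psmc2 start at 21785275, was not among the pairs. Among genes with H3K4me3 at a start the shares were 18.4% and 15.1%. The closest of the pairs counted was Psma7 and Ss18l1, a subunit gene of a neuronal chromatin remodeller, with 19 bp between the starts. Psmd13 lay 85 bp from Sirt3, a mitochondrial deacetylase gene, and Psmc5 lay 101 bp from Ftsj3, for an rRNA methyltransferase. Psmd10 and Atg4a were 196 bp apart, Psma2 and Mrpl32 205 bp, Psme3ip1 and Rspry1 215 bp, and Psme2 and Rnf31 641 bp. At such distances a peak cannot be assigned to one gene of the pair.

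The 13 genes with p300 at an end were Psma3, Psma4, Psma5 and Psma7 of the α ring, Psmb1 and Psmb3 of the β ring, the ATPase genes Psmc5 and Psmc6, the regulatory subunit genes Psmd1, Psmd11 and Psmd13, and Psme2 and Psme3ip1. The α ring held the most for its size, 4 of 7, but so few genes cannot be told from the 26.5% of all marked genes either. The assembly chaperone genes held 0 of 7. By the rough rule that a count of 0 allows up to 3, which is not an exact interval, their share could reach 42.9%. So this group cannot be told from the 26.5% of all marked genes at this number.

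These p300 peaks were modest. Their folds ran from 5.07 to 7.43 with a median of 5.82, beside 5.80 for all genes with p300 at an end. Their summits held 19 to 63 reads with a median of 30, beside 37. The highest fold was at Psmd1, 7.43 with 43 reads (31.1 to 57.9), in a peak of 941 bp whose summit lay at −4 bp, next to the start. The H3K4me3 summit of Psmd1 lay at the same position, within the promoter printed above.

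Psme2 followed with a fold of 6.73 and 42 reads (30.3 to 56.8), between its start and that of Rnf31, a subunit gene of the linear ubiquitin ligase. Psmd13, with a fold of 6.25, had the fewest reads, 19 (11.4 to 29.7), and this peak too reached the gene on its other side, Sirt3. Psma4 had 6.24 with 26 reads and Psma5 6.11 with 30. The interval of Psmd13 did not reach that of Psme2 but overlapped those of Psma4 (17.0 to 38.1) and Psma5 (20.2 to 42.8).

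Psmc6 had a fold of 5.84 with 57 reads (43.2 to 73.9), its summit at −531 bp from the start and so beyond the printed promoter. Psme3ip1 had 5.82 with 29 reads, Psmb1 5.67 with 27 and Psmd11 5.58 with 31. At Psmd11 the peak began 24 bp downstream of the start. Psma7 had 5.53 with 35 reads in a peak that bridged its 2 separate H3K4me3 peaks. Psmb3 had 5.30 with the most reads, 63 (48.4 to 80.6), and Psmc5 had the lowest fold, 5.07 with 23 reads (14.6 to 34.5).

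Psma3 showed 2 places of p300. The peak at its annotated end had a fold of 5.55 and 25 reads and lay under H3K4me3 at 70967826 to 70969159 on chromosome 12. That H3K4me3 peak also reached n-TKctt17, a lysine tRNA gene at 70969120 to 70969192. The stronger p300 peak, with a fold of 8.58 and 44 reads, began 51 bp downstream of the listed start at 70974623, inside a second H3K4me3 peak of fold 6.92. The summit of the H3K4me3 peak at the annotated end lay at −6030 bp from the listed start. At Psmb3 the H3K4me3 peak likewise touched a tRNA gene, n-TNgtt8, for asparagine.

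All 13 p300 peaks at gene ends overlapped H3K4me3, as did 97.6% of p300 peaks at the ends of all genes, and 12 had their summit inside it, beside 94.0%. Of the 13 genes, 7 had a p300 peak that also came within 1 kb of another protein-coding gene's end, 53.8%. The share of all genes with p300 at an end was 38.1%, from which so few genes cannot be told. H3K4me3 had the same median fold with and without p300, 8.42 over 13 genes and 8.44 over 30. It was wider and deeper with p300, at medians of 1426 and 1124.5 bp and of 199 and 136 reads. All genes differed the same way, at 1332 and 1028 bp and at 171 and 118 reads.

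Around the genes the share with p300 was nearer to that of all genes. In the gene or within 1 kb it was listed for 14 of 48, 29.2% (17.0% to 44.1%), beside 20% of all genes, the added gene being Psmd8 with an internal peak of fold 4.32. Within 50 kb it was listed for 23, 47.9% (33.3% to 62.8%), beside 44.2%. Of the 43 genes with H3K4me3 at an end the share was 53.5%, beside 62.8%. The median proteasome gene spanned 12362.5 bp against 17170.0 bp for all genes, and the part of gene length in these counts was not tested. The count within 50 kb also fell with weak peaks removed. It was 15 of 48 at or above the median fold, beside 27.6%. At or above the median −log10 q it was 11 of 48, beside 27.1%. This last share lay below that of all genes, while the share from all listed peaks lay above it.

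These 23 genes drew on 38 distinct p300 peaks, 13 at an end, 2 inside a gene and 23 farther away. Of the 23 farther peaks, 15 lay at the end of another protein-coding gene. Of all 6512 p300 peaks, near a gene or not, 2445 lay at the end of a protein-coding gene. H3K4me3 overlapped 37 of the 38, and the exception, with a fold of 2.98, lay 7655 bp from Psmc6. The same share over all p300 peaks was not worked out, so this overlap cannot be called particular to these genes. The farther peaks had folds from 2.91 to 8.63 with a median of 5.61.

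In 5 of 48 genes, 10.4% (3.47% to 22.7%), 3 or more p300 peaks lay within 50 kb, beside 9.30% of all genes. Psma3 had 4, and Psmc6, Psmc3ip, Psmd4 and Psmd8 had 3 each. Psmd4, with no p300 at its own ends, had the strongest one near any of the genes. It had a fold of 8.63 and a −log10 q of 133, with 240 reads at its summit, and lay inside Pip5k1a, a lipid kinase gene. A further peak near Psmd4, of fold 8.17, lay at the end of Zfp687. Near Psmc6 the 2 other peaks were weak, with folds of 2.91 and 2.98, and those of Psmc3ip had folds of 4.05 to 5.34. Psmc5 had a peak of fold 8.41 at the ends of Ccdc47 and Ddx42, and Psme1 and Psme2 shared one of 7.78 at Dcaf11.

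**Figure D4:**
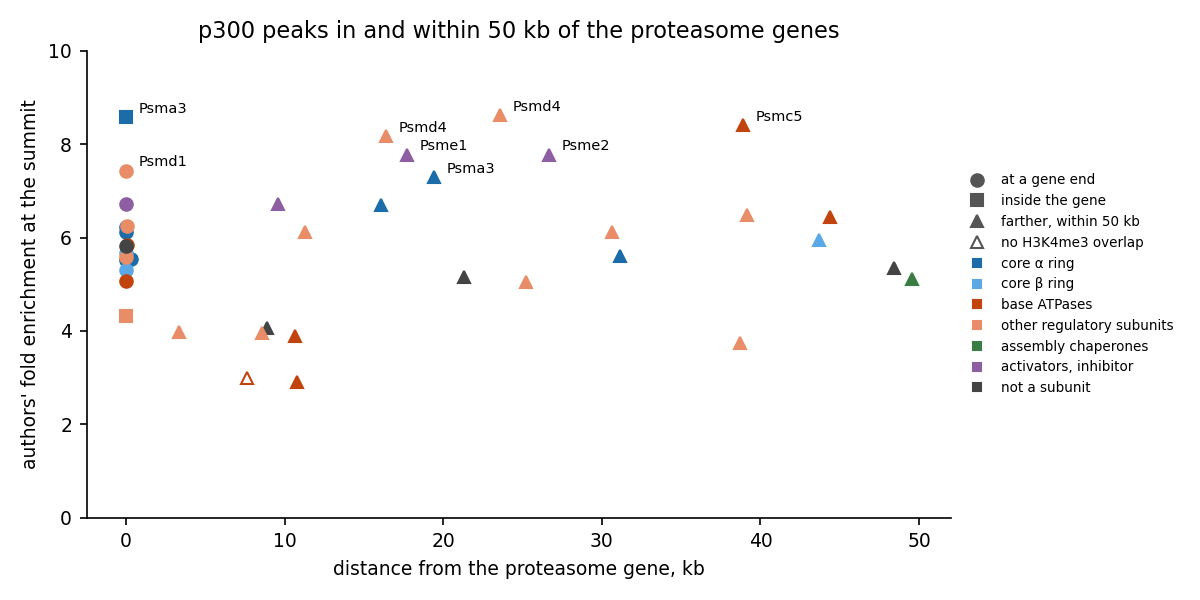
p300 peaks within 50 kb of proteasome genes: distance from the gene in kb (0 for peaks inside or touching it) against the authors' fold enrichment, 1 point for each gene and peak, so that peaks near both Psme1 and Psme2 appear once for each. Circles lie at a gene end, squares inside the gene and triangles farther away, coloured by role, and the open symbol has no H3K4me3. Folds range from 2.91 to 8.63, and the peak of 8.63 is that near Psmd4.

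The promoter windows were searched for 9 short motifs on both strands. The windows cover 44 starts of 40 genes, of which those of the 2 Psme2 starts overlap, and the share of all 21262 promoters and of the 11011 with H3K4me3 at the start is given beside each. A match is a description of letters and not of binding. CCGGAAG was in 17 proteasome promoters, 38.6%, beside 11.6% of all and 19.8% of marked promoters. In percentage points this was the widest gap above marked promoters among the 9 motifs. The 17 belonged to 16 genes: Psma6, Psmc1, Psmc2 (both starts), Psmc3ip, Psmc6, Psmd2, Psmd4, Psmd6, Psmd11, Psmd12, Psmd13, Psme3, Psme3ip1, Psme4, Psmg1 and Psmg3. It was in none of the 5 β subunit promoters searched, those of Psmb3, Psmb4, Psmb5, Psmb6 and Psmb11. With so few promoters this cannot be told from the 19.8% of marked promoters. Those of Psmb1, Psmb2 and Psmb7 were not searched. Among the promoters printed above, the first base of the match lay at −6 from the start in Psmd13, −11 in Psmd11 and −100 in Psmc6.

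AAGATGG, found in sites of YY1, was in 8 promoters, 18.2%, beside 6.24% of all and 7.19% of marked ones. In the window cut to 150 bases before the start and none after it, 2 remained, since 4 of the 8, in Psma2, Psmb6, Psmc1 and Psmc5, began after the start and those in Psme2 and Psme2b lay farther upstream. GCGCANGCG, a nuclear respiratory factor motif, was in 7, 15.9%, beside 8.58% and 14.8%.

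TGACNNNGC was in 6 promoters, 13.6%, beside 13% of all and 14.2% of marked ones, close to both backgrounds. Counting from the start as 0, with negative positions before it, the matches began at −47 in Psmb5, −9 in Psmb6, −31 in Psmd9, −7 in Psme4, −227 in Psmc6 and −247 in Psmd12. Psmb5 and Psmb6 encode catalytic subunits. In the shorter window 3 promoters held it, beside 7.17% of all. No match says only that these letters were not in the window.

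Of the other motifs, that of SP and KLF factors was in a smaller share than among marked promoters. The sets are not alike, since 40 of the 44 proteasome promoters had H3K4me3 at the start. Whether this gap exceeds counting error was not tested. Those of NF-Y, the E-box, the TATA box and AP-1 lay near the share of marked promoters, with few matches for all but NF-Y. GGGCGG, bound by SP and KLF factors, was in 24, 54.5%, beside 46.2% and 67.8%. CCAAT, bound by NF-Y, was in 15, 34.1%, beside 38.2% and 38.6%. CACGTG, the E-box, was in 4, 9.09%, beside 7.84% and 10.5%. TATAAA, the TATA box, was in 3, 6.82%, beside 12.6% and 5.88%, and TGANTCA, bound by AP-1, in 2, 4.55%, beside 6.99% and 4.20%. TGANTCA can share letters with TGACNNNGC, and both were in the promoters of Psmb5 and Psmd9, at separate positions, and in 229 of all promoters.

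Split by p300, the motif counts were small. CCGGAAG was in 4 of 13 with p300 within 1 kb of the start and in 13 of 31 without, and TGACNNNGC in 1 of 13 and 5 of 31. Base composition lay between that of all promoters and that of marked ones. The median GC content was 58.2%, beside 56.3% of all and 62.0% of marked promoters, and the median number of CpG dinucleotides was 19, beside 13 and 22. The starts without H3K4me3 had few, with 4 in Psmb11, 3 at the distal start of Psma6, 2 in Psme2b and 1 at the inner start of Psme3ip1, where unmarked promoters had a median of 4.

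**Figure D5:**
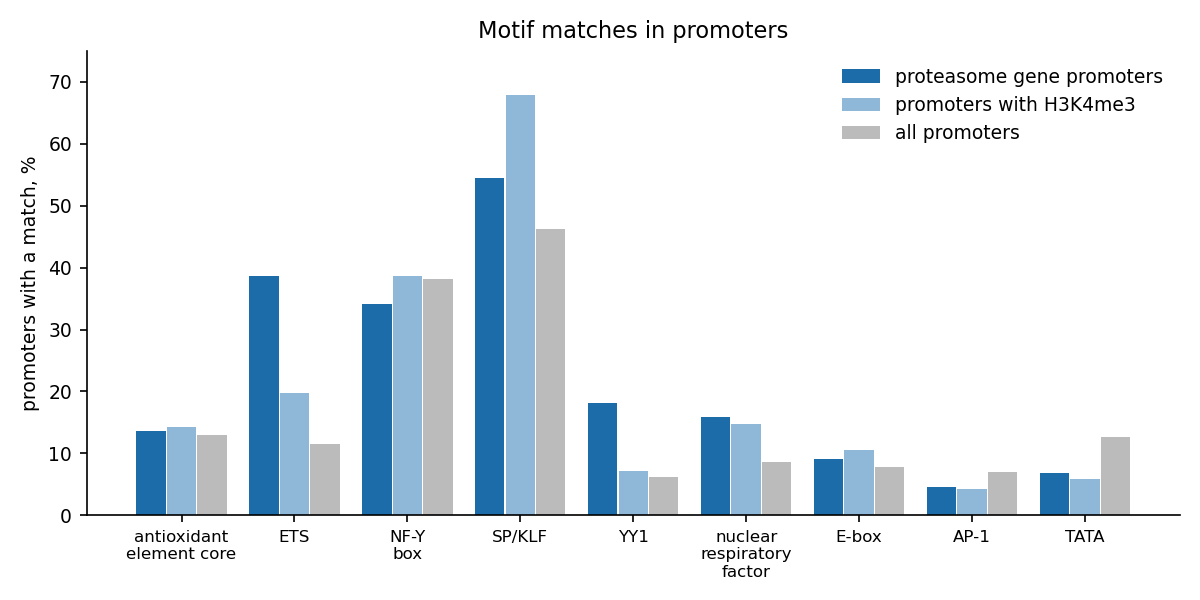
Share of promoters, in percent, that hold each motif on either strand, for the 44 proteasome promoters, all 21262 promoters and the 11011 with H3K4me3 within 1 kb of the start. CCGGAAG (ETS) stands at 38.6% against 19.8% of marked promoters, and TGACNNNGC (antioxidant element core) at 13.6% against 14.2%.

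Other genes of the ubiquitin-proteasome pathway gave a setting for these values. Of a list of 33 such genes, 32 matched the annotation, and 28 of these had H3K4me3 at an end and 14 had p300 there, beside the 50.5% and 13.5% of all genes. All 14 with p300 were marked, and of all marked genes 26.5% had p300 at an end. The groups within the list are too small to set against that share. The median H3K4me3 fold of the listed genes was 7.13 (3.84 to 11.6), below the 8.42 of the proteasome genes and near the 7.28 of all marked genes. The immunoproteasome genes, which replace the catalytic β subunits under interferon, were all 3 marked. Psmb9 had a fold of 9.50 and Psmb10 one of 6.94. Psmb8 had 3.84 with 72 reads, together with p300 of fold 5.47.

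All 4 genes of the NFE2L1 part of the list were marked. Nfe2l1 had a fold of 5.25 with p300 of 5.37 and 52 reads, and Nfe2l2, for the related factor of the oxidative stress response, had 6.26 with p300 of 6.71 and 154 reads. Ddi2, for the protease that releases NFE2L1, had 7.59, and Ngly1, for the enzyme that removes its sugars, had 8.76, both without p300 at an end. Among ubiquitin and activating enzyme genes all 6 were marked and 3 had p300, and Uba6 had the highest fold of the list, 11.6. Among shuttle and unfoldase genes 8 of 10 were marked and 6 had p300, including Vcp with p300 of fold 7.95 and 96 reads. Of 3 genes for enzymes bound to the proteasome, all were marked, and Usp14 and Uchl5 had p300. Of 6 genes for further subunits, maturation and assembly, 4 were marked and none had p300; Ecpas and Fbxo7 had H3K4me3 inside the gene alone.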

How the data were processed

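CUT&Tag libraries of wild-type B16 cells were used, 1 for H3K4me3 and 1 for p300, each as a peak list that the authors deposited. The submitters' processing notes name build mm10, deepTools, Picard 2.22.4, Bowtie2 2.2.5 and Trim Galore. Which program called peaks, with what control, and whether duplicates were removed or replicates pooled, was not stated in any source used here. Each deposited peak has a score (the whole part of 10 times −log10 q, apart from 2 H3K4me3 peaks), a fold enrichment read as a ratio of summit to background, and deposited −log10 p and −log10 q values. On mitochondrial DNA and scaffolds, 24 H3K4me3 and 17 p300 peaks were left out.

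Gene spans and promoters came from RefSeq tables of GRCm38.p6. A peak counted at a gene end within 1 kb of either annotated end, which takes in 3′ ends, and overlaps needed 1 bp. For each gene the peak of highest fold was used. Summit reads were solved from deposited fold and −log10 p as a Poisson tail, a step chosen after the values were seen, and came out whole for 99.98% of H3K4me3 and 99.97% of p300 peaks (within 0.002 of −log10 p). The scripts (Python 3.11.15, scipy 1.17.1) were tested on simulated data. The members and lists were chosen with earlier results of these data known. Values are given for genes with p300 at an end, without H3K4me3 at an end, with the 5 highest and 5 lowest folds, the 3 widest and 3 narrowest peaks, a shared peak, or 3 or more p300 peaks within 50 kb, and the rest by range, with some chosen after their values were seen. Alternatives changed the distance, the overlap, the peak threshold, the use of start sites and the promoter window. A planned comparison of Psmb5 and Psmb11 proteins was not made.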

Additional observations from a re-analysis of the deposited data

How the results depend on the processing

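Of 88 alternative values 76 stayed close to those reported and 12 moved. Closeness was judged on the values of the proteasome genes alone. A change of side against the background was not scored. With start sites in place of gene ends, 7 of 38 genes shared an H3K4me3 peak, beside 18.9% of all marked genes. Within 100 kb, 35 genes had p300, beside 55.9% of all genes. With peaks at or above the median fold, p300 was at an end of 7 genes, in or within 1 kb of 8 and within 50 kb of 15, beside 6.93%, 10.9% and 27.6% of all genes. At or above the median −log10 q these were 4, 5 and 11, beside 6.5%, 10.5% and 27.1%. The share of marked genes with p300 was then 10.3%, beside 14.6%. It so changed side from the 30.2%, beside 26.5%, of all listed peaks. The share within 50 kb, 11 of 48 genes, changed side too. That in the gene or within 1 kb, 5 of 48, came down to about the share of all genes. Within 150 bases before the start, 3 promoters held TGACNNNGC. AAGATGG fell from 8 to 2 promoters and TGANTCA from 2 to 1. Fewer peaks or bases are counted in these last settings by construction. The count with H3K4me3 at an end was lowest, 36 beside 34.4% of all genes, with peaks at or above the median fold. Leaving out Psmc3ip and Psme3ip1 was chosen after seeing the data. No paired analysis was possible because each antibody had 1 library and the labels carry no replicate numbers. Read numbers of 14 or more at every listed p300 summit, and 15 for H3K4me3, mean that weaker sites were not listed.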

Other observations

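RefSeq lists 6 pseudogenes named after subunits: Psma5-ps, Psmb5-ps, Psmb6-ps, Psmb6-ps2, Psmb7-ps1 and Psmb7-ps2. None had an H3K4me3 or p300 peak in its span or within 1 kb. They were not part of any count above.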
